A study of Rattus norvegicus with 6 samples.

Results

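Heat shock chaperones bind unfolded or newly made proteins and keep them from clumping until they fold. The genes described here are 32 of the 22601 genes in a deposited RNA-seq table, chosen by name as the cytosolic and mitochondrial heat shock chaperones, their co-chaperones and the transcription factors that control them. They comprise 2 heat shock factors, 10 genes known to be induced by heat or misfolded protein and 9 genes grouped as constitutive cytosolic. The rest are 4 mitochondrial genes and 7 subunits of the cytosolic chaperonin. The class names are labels for this description, and genes outside the inducible class may also be induced by heat. Of the members, 31 were matched by symbol, and Hspa1b was matched by its GeneID (108348108), since the table lists that GeneID under a placeholder symbol. The table's own product name for that row is heat shock 70 kDa protein 1A, while RefSeq gives the GeneID the symbol Hspa1b.

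The cells were RBL-2H3, a wild-type rat basophilic leukemia line that carries the high-affinity IgE receptor and stands in for mast cells in many laboratories. In the PIO group, 3 libraries came from cells that had PIO, a PPARγ agonist, at 10 µM over 6 h. In the control group, 3 libraries came from the same line without PIO. The labels state neither a vehicle nor a time for the control cells, and any effect of these cannot be told apart from that of PIO. Nor do they say whether replicates were separate cultures, so the p-values reflect the spread among 6 libraries that may be technical repeats.

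Values are FPKM, fragments scaled to gene length and library size, which allows levels to be compared between genes. Read numbers given here were recovered from the FPKM values. The library totals inferred in this way were 14048202 to 15084729 reads, and the totals sequenced are not given. Of 7 mast cell and basophil markers 6 were expressed, with summed levels of 2330 to 2382 FPKM in PIO libraries and 2309 to 2454 FPKM in control libraries, and Tpsab1 was at 0 in all 6. Markers of macrophages, T cells, B cells, fibroblasts and erythroid cells summed to at most 3.42 FPKM per list, with Dcn and Hbb at 0. T cell markers summed to 0.56 to 0.949 FPKM in PIO libraries and 1.14 to 1.3 FPKM in control libraries, and fibroblast markers to 0.0244 to 0.143 FPKM in PIO libraries and 0.169 to 0.218 FPKM in control libraries. Both were near 0 and did not overlap between the groups, and their part in the chaperone values was not tested. All libraries came from 1 cell line, and 1 of the 3 T cell markers and 0 of the 4 fibroblast markers reached the minimum level for testing. Bulk libraries cannot tell fewer expressing cells from less RNA per cell.

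In the textbook account, HSF1 is held inactive by chaperones in unstressed cells. When misfolded protein occupies those chaperones, HSF1 forms trimers, binds heat shock elements near the start of its targets and raises the inducible chaperones within hours. The constitutive HSC70 and HSP90 systems fold newly made proteins and hold nuclear receptors and kinases, the mitochondrial chaperones fold imported proteins, and the chaperonin TRiC folds actin and tubulin. KIT, the growth factor receptor of mast cells, is among the kinases that need HSP90.

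A heat shock element is built from alternating GAA and TTC units spaced by any pair of bases. Promoter windows of RefSeq (rat assembly GRCr8), running from 250 bases before to 50 bases after the start, were found for 27 of the 32 members. They were searched on both strands for TTCNNGAA and GAANNTTC, each of 2 units, and for GAANNTTCNNGAA, of 3 units, which contains both shorter ones. The following stretches show where such letters lie in genes of each kind. Capitals mark the matched letters, and overlapping matches run together.

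Hsph1, chr12:10427248-10427367, plus strand: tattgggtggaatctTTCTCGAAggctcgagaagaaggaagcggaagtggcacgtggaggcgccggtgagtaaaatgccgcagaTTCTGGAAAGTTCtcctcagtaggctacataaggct

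Dnajb1, chr19:41431142-41431201, minus strand: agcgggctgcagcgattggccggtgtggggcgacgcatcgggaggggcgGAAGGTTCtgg

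Bag3, chr1:192533310-192533369, plus strand: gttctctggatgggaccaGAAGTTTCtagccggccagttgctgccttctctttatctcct

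Chordc1, chr8:23650831-23650853, plus strand: GAACGTTCGGGAAGATTCCTGAA

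Hspa8, chr8:50080284-50080483, plus strand: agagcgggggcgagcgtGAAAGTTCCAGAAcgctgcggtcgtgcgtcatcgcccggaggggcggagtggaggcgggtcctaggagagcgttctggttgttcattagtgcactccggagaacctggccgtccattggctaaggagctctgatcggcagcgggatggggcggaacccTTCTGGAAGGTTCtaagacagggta

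Hspd1, chr9:64084238-64084287, minus strand: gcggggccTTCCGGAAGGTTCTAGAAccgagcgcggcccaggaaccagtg

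Hspe1, chr9:64084242-64084291, plus strand: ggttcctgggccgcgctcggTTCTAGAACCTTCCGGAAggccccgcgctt

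Cct5, chr2:84313914-84313963, minus strand: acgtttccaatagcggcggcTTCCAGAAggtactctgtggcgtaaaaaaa

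Any of these letters occurred in 14 of the 27 windows, against 15.4% of the 27457 rat promoter windows searched. By class they occurred in 6 of 7 inducible windows, 3 of 8 constitutive cytosolic windows, 3 of 4 mitochondrial windows, 2 of 7 chaperonin windows and not in that of Hsf2. The 3-unit form occurred in 7 windows, those of Hsph1, Dnaja1, Chordc1, Hspa8, Hspd1, Hspe1 and Cct4, against 0.736% of all windows. TTCNNGAA alone was found in 8.49% and GAANNTTC in 8.34% of all windows. The Hspa1a window held none of them, which says only that these letters are not in that window. A match describes the sequence and shows no binding.

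Hspd1 and Hspe1, which encode the mitochondrial chaperonin HSP60 and its lid HSP10, lie head to head on chromosome 9, and their windows overlap by 211 bases. They share 1 element of 18 bases, read as TTCCGGAAGGTTCTAGAA on the strand of Hspd1 and as its reverse complement TTCTAGAACCTTCCGGAA on the strand of Hspe1. It begins 242 bases before the start of Hspd1 and 65 bases before the start of Hspe1. The counts of windows given above include this 1 element under both genes. In Chordc1 the letters lie after the start, at 10 to 32 bases from the first transcribed base, which is counted as 0.

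**Figure D1:**
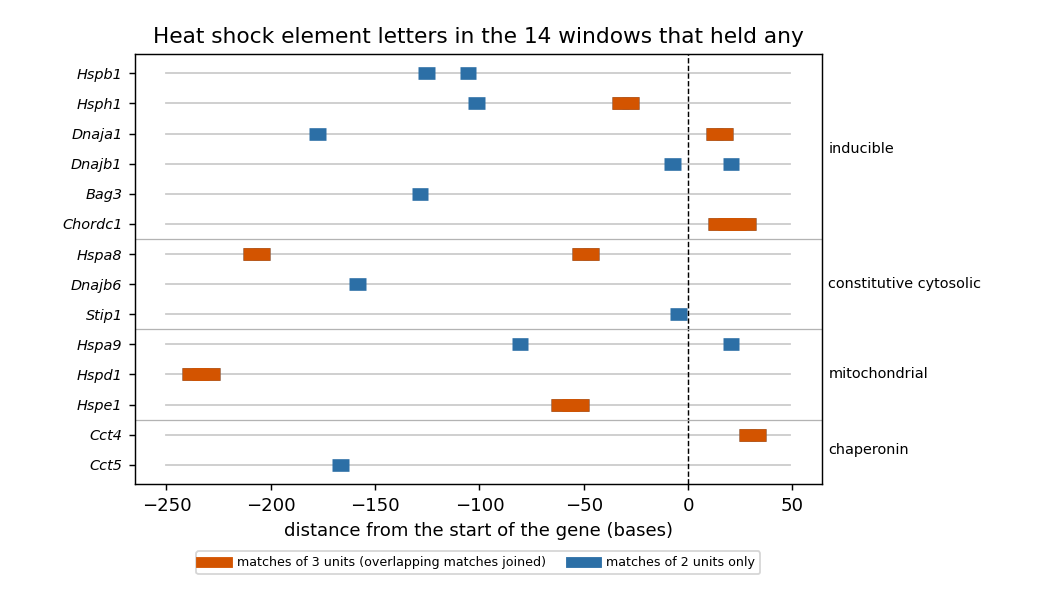
Positions of heat shock element letters in the promoter windows of 14 chaperone genes, with distance from the start in bases on the x axis and 1 gene per line. Orange blocks are matches of 3 units, joined where they overlap, blue blocks are matches of 2 units, and the dashed line is the start. Hspd1 and Hspe1 share 1 element of 18 bases, and the 3-unit matches of Chordc1, Dnaja1 and Cct4 lie after the start.

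With PIO, none of the 29 chaperone genes tested passed the threshold, an adjusted p under 0.05 in limma with Benjamini-Hochberg adjustment over all 10410 genes tested. The same threshold was passed by 4 genes in all, or 0.0384%. The differences were small in both directions. Log2 fold changes of PIO over control, on the log2(FPKM + 0.5) scale, lay between -0.20 and 0.20, and 24 of the 29 were under 0.1 in size. The 95% intervals of single genes ran from a fold of 0.80 to a fold of 1.3 at their outermost, and 26 of the 29 included no change. Each tested member had between 478 and 68263 reads per library.

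At an unadjusted p under 0.05 there were 3 members, Hspa9, Dnajb1 and Chordc1, or 10.3% of those tested, against 12.5% of all genes. limma-voom on the reads recovered from the FPKM also passed none. It had 4 of the 29 members at an unadjusted p under 0.05, beside 1383 of all 10410 genes tested. In 6 members, 20.7%, the values of the groups did not overlap, against 18.5% of all genes. PIO was higher in 4 of them (Hsf1, Dnajb1, Bag3 and Hsp90ab1), against 10.5% of all genes, and lower in 2 (Chordc1 and Hspa9), against 8.09%. These shares lay near those of all genes.

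**Figure D2:**
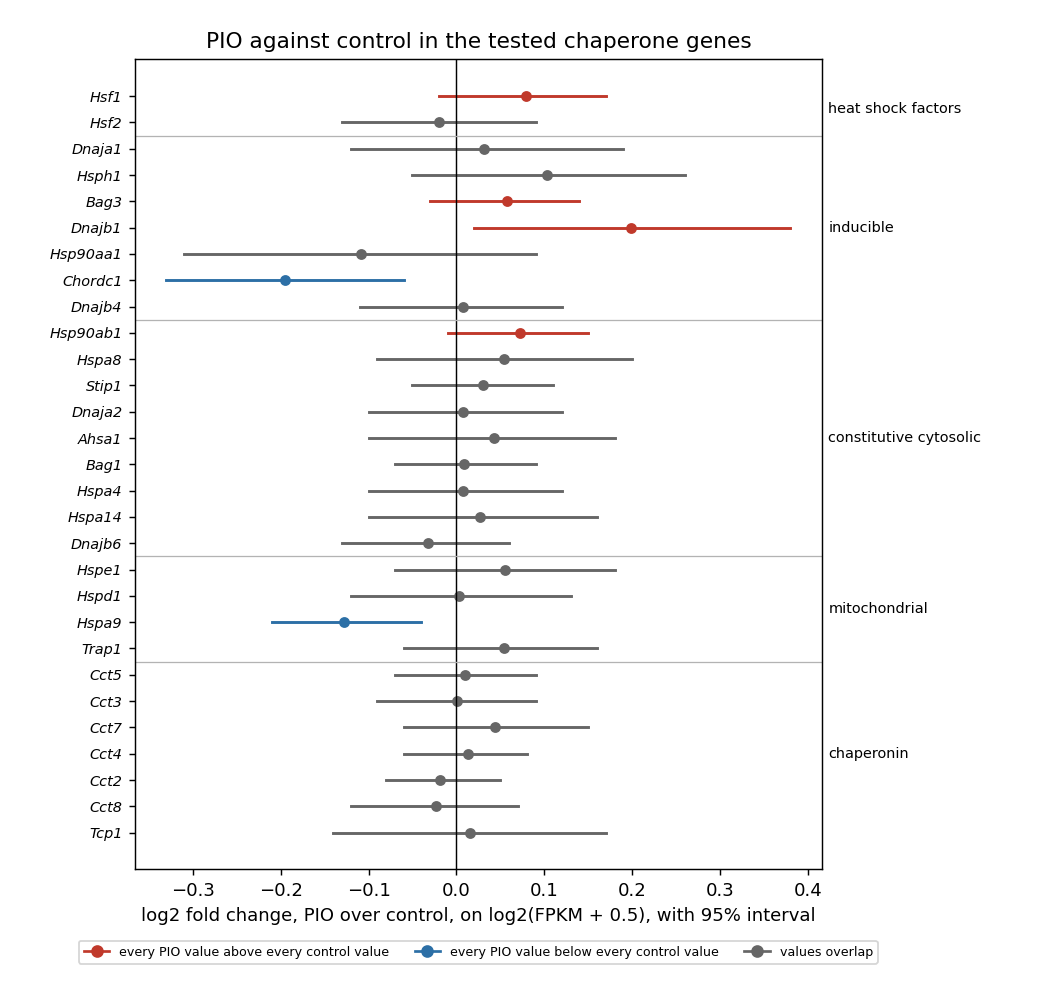
Log2 fold change of PIO over control with its 95% interval on the x axis, for the 29 chaperone genes tested, grouped by class and ordered by level. All values lie between -0.20 and 0.20, and red and blue mark the 6 genes whose PIO and control values did not overlap.

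The levels spanned more than the differences. Hsp90ab1, the constitutive HSP90 and the client-holding chaperone of the cytosol, averaged 1945 FPKM over the 6 libraries and ranked 25 among all genes listed. Hspa8, the constitutive HSC70, averaged 604 FPKM, and Cct5, a chaperonin subunit, 503 FPKM, and the ranges of these first 3 did not overlap. At the other end, Hspb1, Hspa1a and Hspa1b stayed under 1 FPKM in every library. The 32 genes together held 1.14% to 1.21% of the total FPKM of a library, 1.19% ± 0.0249 with PIO and 1.18% ± 0.0343 in control (SD, n = 3 each).

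**Figure D3:**
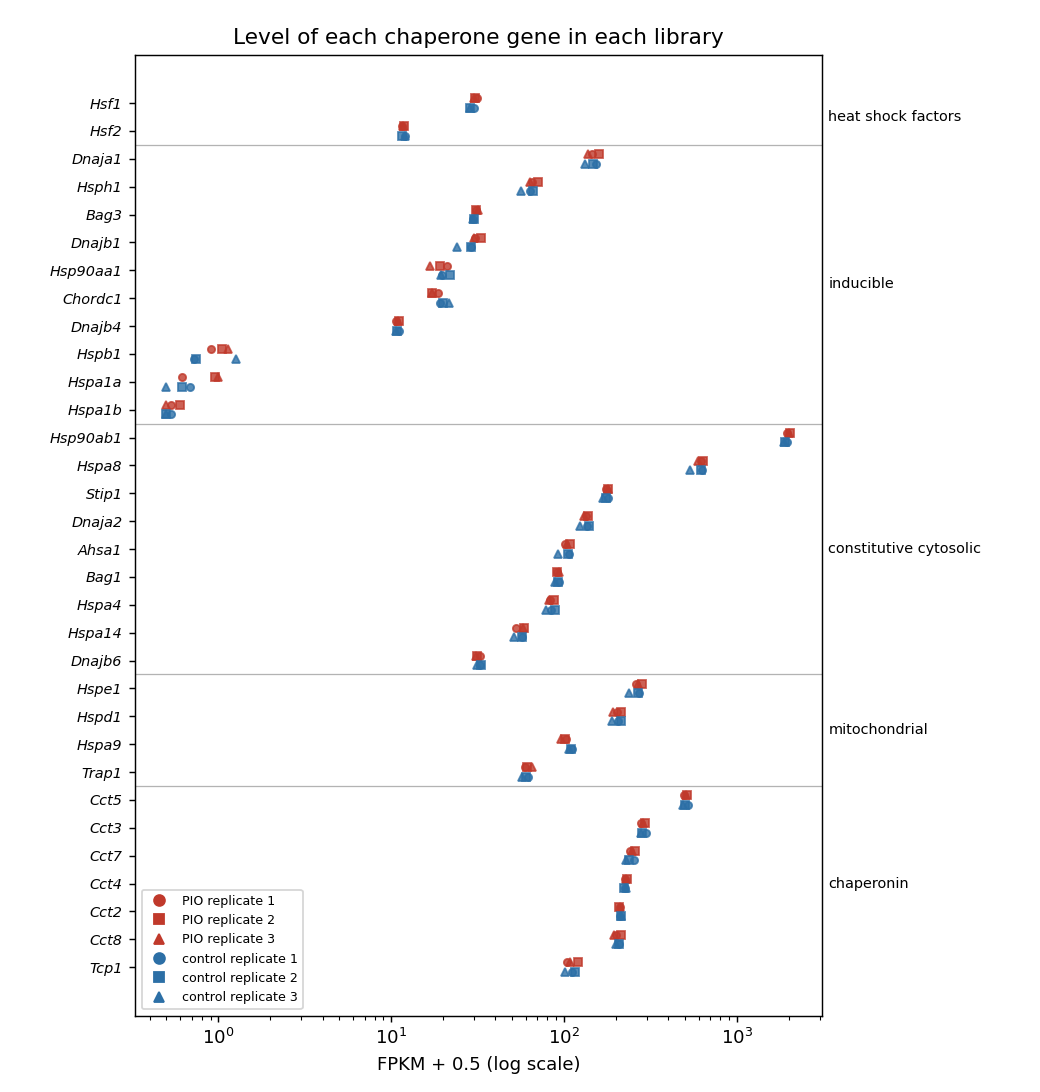
FPKM + 0.5 of each of the 32 chaperone genes in each library, on a log axis, grouped by class, with PIO in red above control in blue and a marker shape per replicate. Points of a gene lie close together next to the spread between genes, from under 1 FPKM for Hspb1, Hspa1a and Hspa1b to 2032 FPKM for Hsp90ab1.

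The heat shock factors differed little between the groups. Hsf1, the main activator of the heat shock response, had 30.79, 30.12 and 29.40 FPKM in PIO libraries, against 29.37, 28.17 and 27.89 FPKM in control libraries. Every PIO value lay above every control value, though PIO replicate 3 and control replicate 1 were nearly equal, and the log2 fold change was 0.08 (SE 0.04, limma adjusted p = 0.460). Hsf2, which works beside HSF1 and in development, had 11.0, 11.3 and 11.2 FPKM with PIO and 11.4, 11.1 and 11.5 FPKM in control. Its values overlapped, with a log2 fold change of -0.02 (SE 0.05, limma adjusted p = 0.879). The ratio of Hsf1 to Hsf2, picked after its values were seen, was 2.70 ± 0.089 with PIO and 2.52 ± 0.0729 in control (SD, n = 3 each), without overlap.

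Among the inducible genes, the HSP70 and HSP27 genes that rise most sharply under heat in other cells were barely expressed in either group. Hspa1a, an inducible HSP70, had 4, 16 and 17 reads in PIO libraries, against 7, 4 and 0 reads in control libraries, and PIO replicate 1 lay within the control range. Hspa1b, its near-identical copy, had 1, 3 and 0 reads with PIO and 1, 0 and 0 reads in control. The sources used here do not give how reads shared by the copies were assigned, so their split is uncertain. A count of 0 allows up to 3 reads, and these limits cover counting error only. Such low counts are the smallest that fit the FPKM values. Hspb1, a small heat shock protein that binds unfolding proteins, had 5, 7 and 8 reads with PIO and 3, 3 and 10 reads in control, with overlap. All 3 fell under the minimum mean of 0.5 FPKM over the libraries and were not tested. A row outside the members, named as similar to HSP70B (LOC686035), was somewhat higher. It had 1.72 to 2.22 FPKM with PIO and 1.90 to 2.30 FPKM in control, with overlap (log2 fold change -0.09).

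The 7 inducible genes that were tested had log2 fold changes with a median of 0.03, 5 above 0 and 2 below, and ran further out than the other classes, from -0.20 to 0.20. Dnajb1, the HSP40 co-chaperone that hands clients to HSP70 and is a classic HSF1 target, had 29.97, 32.3 and 29.7 FPKM with PIO, against 28.3, 28.5 and 23.3 FPKM in control. All PIO values lay above all control values, and control replicate 3 stood lowest. The means were 30.6 ± 1.44 FPKM with PIO and 26.7 ± 2.92 FPKM in control (SD, n = 3 each), a log2 fold change of 0.20 (SE 0.08, limma adjusted p = 0.376). Without control replicate 3 it was 0.11. The ratio of Hspa8 to Dnajb1 was 20.1 ± 0.392 with PIO and 22.2 ± 0.693 in control (SD, n = 3 each). That of Dnaja1 to Dnajb1 was 4.77 ± 0.136 with PIO and 5.37 ± 0.233 in control (SD, n = 3 each). Both were without overlap, but both divide by the Dnajb1 values given above, so they are no separate evidence of a difference. The ratios of Hspa8 to Hsph1 and of Hspa8 to Hspa4 overlapped. None of these ratios was planned in advance, and the share of all gene pairs without overlap was not computed. The element closest to the start of Dnajb1 is the GAAGGTTC in the stretch printed earlier.

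Chordc1, an HSP90 co-chaperone also named morgana, went the other way. It had 18.0, 16.7 and 16.8 FPKM with PIO, against 18.7, 19.4 and 21.1 FPKM in control. Every PIO value lay below every control value, with control replicate 3 highest. The means were 17.2 ± 0.748 FPKM with PIO and 19.8 ± 1.20 FPKM in control (SD, n = 3 each), and the log2 fold change was -0.20 (SE 0.06, limma adjusted p = 0.309).

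Hsph1, the large HSP110 that resets HSP70 by exchanging its nucleotide, had 64.4, 70.1 and 62.9 FPKM with PIO, against 63.3, 65.2 and 55.5 FPKM in control. The groups overlapped, and control replicate 3 was again the lowest library (log2 fold change 0.10, SE 0.07, limma adjusted p = 0.543). Without that library the value was 0.033, and without PIO replicate 2 it was 0.057. Bag3, a partner of HSP70 in the autophagy of damaged proteins, had 30.4, 30.2 and 31.0 FPKM with PIO and 29.1, 29.4 and 29.4 FPKM in control. The groups did not overlap, but lay 4.18% apart in their means (log2 fold change 0.06, SE 0.04, limma adjusted p = 0.532).

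Hsp90aa1, the inducible HSP90, had 20.4, 18.7 and 16.2 FPKM with PIO, against 19.1, 21.4 and 19.0 FPKM in control. The PIO libraries spread on both sides of the lowest control values (log2 fold change -0.11, SE 0.09, limma adjusted p = 0.608). The value was -0.022 without PIO replicate 3, -0.18 without PIO replicate 1 and -0.055 without control replicate 2. Another row named as HSP 90-alpha (LOC103692716) had at most 6 reads in a library. Dnaja1, an HSP40 that works with HSC70, had 143, 158 and 137 FPKM with PIO, against 152, 147 and 131 FPKM in control. Dnajb4, another HSP40, had 10.1, 10.6 and 10.4 FPKM with PIO, against 10.6, 10.2 and 10.2 FPKM in control. Both overlapped between the groups, with log2 fold changes of 0.03 and 0.01.

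**Figure D4:**
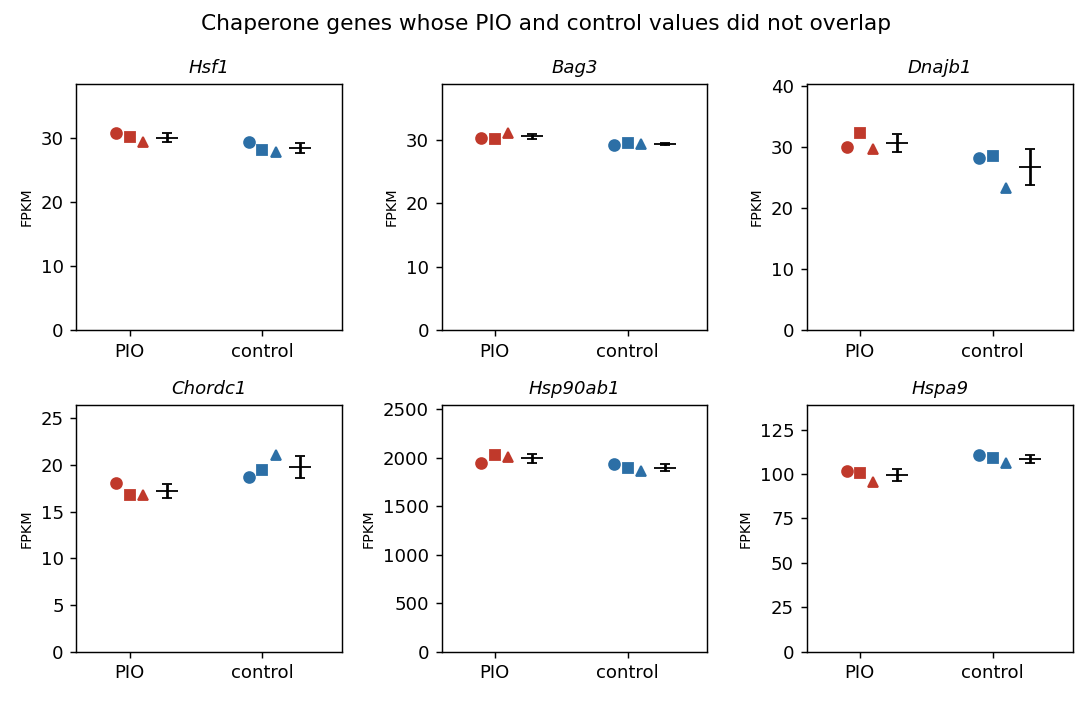
FPKM in each library for the 6 chaperone genes whose PIO and control values did not overlap, with PIO left of control, a marker shape per replicate, and the mean with its SD as a black bar (n = 3 each). The groups lie close together in each panel, and control replicate 3 stands apart from the other control libraries in Dnajb1 (23.3 FPKM) and Chordc1 (21.1 FPKM).

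Of the 9 constitutive cytosolic genes, 8 had log2 fold changes above 0 and 1 below, all between -0.03 and 0.07, with a median of 0.03, while 54.0% of all genes lay above 0. The count above 0 was 2 of 9 without control replicate 3, 5 of 9 without PIO replicate 2, 4 of 9 under TPM scaling and 3 of 9 under quantile normalization. The shares of all genes above 0 in these 4 settings were 53.7%, 53.4%, 42.5% and 51.6%. Hsp90ab1 had 1945, 2032 and 2006 FPKM with PIO, against 1936, 1893 and 1861 FPKM in control. The groups did not overlap, with 62422 or more reads in every library, and the interval ran from a fold of 1.00 to a fold of 1.11 (log2 fold change 0.07, SE 0.03, limma adjusted p = 0.425). The sign turned under quantile normalization, with a log2 fold change of -0.0026. Relative to Hsp90aa1, Hsp90ab1 stood at 109 ± 14.2 with PIO and 95.9 ± 6.56 in control (SD, n = 3 each), with overlap.

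Hspa8 had 614, 637 and 592 FPKM with PIO, against 629, 615 and 535 FPKM in control. Control replicate 3 was the lowest library, and the other control values lay inside the PIO range (log2 fold change 0.05, SE 0.06, limma adjusted p = 0.729). Without control replicate 3 the value was -0.02. A row named as similar to heat shock protein 8 (LOC689955) had 36.9 to 39.8 FPKM with PIO and 34.2 to 39.7 FPKM in control, so reads shared between these loci may be split.

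Dnajb6, an HSP40 that keeps aggregation-prone proteins soluble, was the member of this class below 0. It had 32.2, 30.9 and 30.4 FPKM with PIO, against 32.1, 32.7 and 30.9 FPKM in control, which overlapped (log2 fold change -0.03, SE 0.04, limma adjusted p = 0.768). A row named as similar to Dnajb6 (LOC690183) had 3.65 to 5.46 FPKM with PIO and 3.96 to 4.58 FPKM in control. Hspa4 and Hspa14, an HSP110 and a ribosome-associated HSP70, Dnaja2, an HSP40, Bag1, a nucleotide exchange factor of HSP70, Stip1, the adaptor that joins HSP70 to HSP90, and Ahsa1, the activator of the HSP90 ATPase, all overlapped between the groups. Their log2 fold changes lay between 0.01 and 0.04, and their mean levels over the 6 libraries between 55.2 FPKM for Hspa14 and 175 FPKM for Stip1.

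Of the 4 mitochondrial genes, 3 lay above 0 and 1 below, with a median of 0.03. Hspa9, the mitochondrial HSP70 mortalin that pulls proteins through the import channel, had 102, 101 and 95.7 FPKM with PIO, against 111, 109 and 106 FPKM in control. Every PIO value lay below every control value. The means were 99.4 ± 3.22 FPKM with PIO and 109 ± 2.30 FPKM in control (SD, n = 3 each), a difference of -8.51%. The log2 fold change was -0.13 (SE 0.04), with an unadjusted p of 0.00821 and a limma adjusted p of 0.304, and -0.14 without control replicate 3. A row named as stress-70-like (LOC100912578) had 5.24 to 6.44 FPKM with PIO and 5.04 to 6.02 FPKM in control, with overlap. Its log2 fold change was 0.08, opposite in sign to that of Hspa9, and reads shared between these loci may be split.

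Hspe1 had 258, 280 and 266 FPKM with PIO, against 271, 267 and 237 FPKM in control, with control replicate 3 lowest (log2 fold change 0.06, SE 0.06, limma adjusted p = 0.694). Hspd1, which shares its promoter stretch, had 201, 212 and 191 FPKM with PIO, against 205, 212 and 188 FPKM in control (log2 fold change 0.00, SE 0.05, limma adjusted p = 0.991). The ratio of Hspe1 to Hspd1, picked after its values were seen, was 1.33 ± 0.0539 with PIO and 1.28 ± 0.0359 in control (SD, n = 3 each), with overlap. Trap1, the mitochondrial HSP90, averaged 61.2 ± 3.06 FPKM with PIO and 58.9 ± 2.2 FPKM in control (SD, n = 3 each), and its values overlapped.

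The chaperonin subunits had the narrowest range of log2 fold changes of the 5 classes, from -0.02 to 0.04, with a median of 0.01. None of the 7 separated by group. Cct7 was at the upper end, with 238, 256 and 245 FPKM with PIO, against 253, 237 and 227 FPKM in control (log2 fold change 0.04, SE 0.05, limma adjusted p = 0.705). Its value ran from 0.0087 without control replicate 3 to 0.084 without control replicate 1. Cct8 was at the lower end, with 198, 212 and 194 FPKM with PIO, against 206, 208 and 200 FPKM in control (log2 fold change -0.02, SE 0.04, limma adjusted p = 0.833).

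The subunits share a ring and are needed in equal number as proteins, while the FPKM of their RNA were unequal. Protein amounts were not measured. Among the 7 members, Cct5 was highest at 503 FPKM over the 6 libraries, then came Cct3 at 285, Cct7 at 243, Cct4 at 225, Cct2 at 210, Cct8 at 203 and Tcp1 at 109 FPKM. The ranges of neighbours in this order overlapped for Cct7 with Cct4 and for Cct2 with Cct8. Cct6a, a subunit of the same ring that is not among the members and was picked after its values were seen, averaged 237 ± 9.99 FPKM with PIO and 237 ± 19.0 FPKM in control (SD, n = 3 each). The ratio of Cct5 to Tcp1, the highest and the lowest of the 7 in these same data, was 4.61 ± 0.259 with PIO and 4.63 ± 0.265 in control (SD, n = 3 each).

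Side by side, the class medians of the log2 fold change were 0.03 for inducible, constitutive cytosolic and mitochondrial genes and 0.01 for chaperonin genes, beside 0.0094 for all genes tested. The summed level of the inducible genes was 320.2 ± 16.5 FPKM with PIO and 311 ± 18.0 FPKM in control (SD, n = 3 each, as in the next 3 sums). The constitutive genes summed to 3284 ± 67.7 FPKM with PIO and 3156 ± 115 FPKM in control. The mitochondrial genes summed to 630.3 ± 19.6 FPKM with PIO and 627.2 ± 34.2 FPKM in control, and the chaperonin to 1782 ± 43.5 FPKM with PIO and 1774 ± 41.6 FPKM in control. The class medians of each library, as deviations from the mean of the 6 libraries on the log2 scale, were compared next. The inducible median minus the constitutive one was 0.027, -0.021 and -0.024 in PIO libraries and -0.026, -0.011 and 0.064 in control libraries. The inducible median minus the chaperonin one was 0.046, 0.003 and -0.018 in PIO libraries and -0.018, 0.027 and 0.009 in control libraries. Both differences overlapped between the groups.

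The counts above 0, and the signs of some of these small differences, depended on single libraries. Under every alternative setting listed below, 13 of the tested members kept their sign. Of the 29 tested members 22 had a log2 fold change above 0, or 75.9%, against 54.0% of all genes. Control replicate 3 was the lowest of the 6 libraries in 18 members (62.1%), against 24.2% of all genes, and PIO replicate 2 the highest in 15 (51.7%), against 17.1% of all genes. In control replicate 3 the median deviation was -0.091 for constitutive and -0.093 for mitochondrial genes, -0.027 for inducible and -0.036 for chaperonin genes, and -0.002 for all genes. Without it, 9 of the 29 (31.0%) lay above 0 and 20 below, beside 53.7% of all genes above 0. The class medians were then -0.0039 for inducible, -0.022 for constitutive cytosolic, -0.026 for mitochondrial and -0.014 for chaperonin genes. Without PIO replicate 2, 13 (44.8%) lay above 0, beside 53.4% of all genes, and the inducible median was -0.0074. The count above 0 was 3 of 7 for inducible genes and 2 of 7 for chaperonin genes with either of these libraries left out. Under TPM scaling 12 of the 29 (41.4%) lay above 0, beside 42.5% of all genes, and under quantile normalization 13 (44.8%), beside 51.6% of all genes.

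Control replicate 3 also stood apart in genes of the integrated stress response. Atf4, its transcription factor, had 243, 240 and 255 FPKM in PIO libraries, against 279, 277 and 617 FPKM in control libraries. Chac1, a target of that factor, had 5.85, 5.65 and 6.74 FPKM in PIO libraries, against 6.89, 6.37 and 60.0 FPKM in control libraries. Ddit3 and Trib3 were likewise highest there, at 22.2 and 31.8 FPKM, and Asns at 195 FPKM. The part of this library's state in the chaperone values was not tested.

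**Figure D5:**
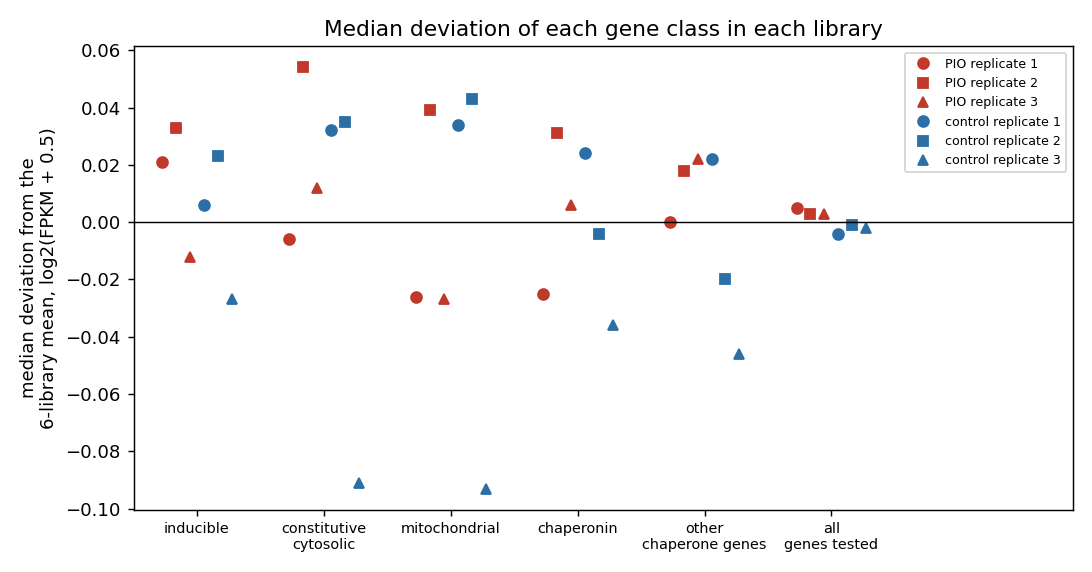
Median deviation of each gene class from the mean of the 6 libraries, on the log2(FPKM + 0.5) scale, in each library, with PIO in red left of control in blue. Control replicate 3 lies lowest in every chaperone list shown, furthest in the constitutive (-0.091) and mitochondrial (-0.093) classes. The medians of all genes tested lie near 0.

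Outside the 32 members, 55 other chaperone genes were listed, and 45 were tested. None passed the threshold, by limma or limma-voom. At an unadjusted p under 0.05 there were 5 by limma (11.1%, beside 12.5% of all genes). By limma-voom there were 4 of the 45, beside 1383 of all 10410 genes tested. Their median log2 fold change was 0.03, with 33 (73.3%, beside 54.0% of all genes) above 0 and 12 below. Without control replicate 3, 25 (55.6%, beside 53.7% of all genes) lay above 0 and 20 below. In 11 (24.4%, beside 18.5% of all genes) the groups did not overlap. Dnaja4, an HSP40, had 6.70, 7.07 and 7.50 FPKM with PIO, against 5.81, 6.17 and 5.81 FPKM in control, without overlap (log2 fold change 0.24, limma adjusted p = 0.304). Bag4, a BAG-domain partner of HSP70, had 8.59, 7.59 and 8.76 FPKM with PIO, against 9.89, 10.1 and 9.10 FPKM in control, without overlap (log2 fold change -0.21, limma adjusted p = 0.340). Of the next in each direction, log2 fold changes were 0.10 for Hsbp1, which binds and restrains HSF1, 0.12 for the myosin chaperone Unc45a, -0.12 for the HSP90-binding Tomm34 and -0.10 for Ptges3, a co-chaperone of HSP90.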

How the data were processed

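The series holds 6 RNA-seq libraries of RBL-2H3 cells, 3 with PIO and 3 control. The authors deposited 1 FPKM value for each gene in each library. RNA was isolated with TRIzol and libraries were built with a stranded mRNA kit, per the labels' protocols. The submitters' processing notes list DESeq, HTSeq, Cufflinks, SAMtools 1.3.1, BWA 0.7.5a, HISAT2 2.2.1.0, FastQC 0.11.5 and Trimmomatic 0.36, with no roles. Whether counting used strand or split reads between near-identical copies is not given. The notes name GRCh38, a human build, while the table holds rat genes, so no coordinates of the table are used. Promoter sequences and their coordinates are those of RefSeq on GRCr8.

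Each FPKM value is a whole number of reads times a constant of its gene and library, so reads were recovered with a total inferred for each library. For each gene the smallest length that made its reads whole in every library was taken. Such a length was found for 15429 of the 15429 rows above 0. The tolerance was 0.0005 of a read plus a margin that grew with the count. Where reads are few, a fitting length is easily found and its multiples fit too. Finding one is thus no check of low counts, which are the smallest that fit. The recovered reads summed to 99.5% of each inferred total.

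limma 3.58.1 (R 4.3.3) compared PIO with control, two-sided and with a variance trend, in the 10410 genes that averaged 0.5 FPKM or more, after taking log2(FPKM + 0.5). P-values were adjusted by Benjamini-Hochberg, with a threshold of 0.05. The added 0.5 makes the fold changes of low genes too small. Fits were tested on simulated data. An exact permutation test of 3 against 3 cannot go below p = 0.1 and was not used. Alternatives were pseudocounts of 0.1 and 1, no filter, a minimum mean of 5 FPKM, median-of-ratios, TPM and quantile scaling, no trend, a robust fit, limma-voom on the recovered reads, the replicate number as a block, and each library left out. Tables and figures were made with Python 3.11.15, numpy 2.4.6, pandas 2.3.3 and matplotlib 3.10.9.

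The members, classes and lists were chosen with earlier results of these data known. Per library values are given for every inducible member and for members whose groups do not overlap. They are also given for the 2 most extreme members of each class and, outside this rule, for Hspa8 and Hspd1. Of the other chaperone genes, those named are the 3 that rank first by p among the higher and among the lower ones.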

Additional observations from a re-analysis of the deposited data

How the results depend on the processing

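No member and none of the other chaperone genes passed the threshold under any of the 17 alternatives, and the smallest limma adjusted p of a member was 0.209. Of 595 log2 fold changes of 35 genes under the alternatives, 548 kept their sign and 47, in 16 members, turned. With all libraries and the reported settings, none of those 16 was over 0.073 in size (Hsp90ab1), and the turned value furthest from 0 was -0.047 (Hspd1 without control replicate 3). The number of genes called in the whole table, 4, became 1 with no filter, 2 with no variance trend, 7 with a robust fit and 7 with limma-voom, and lay between 2 and 4 with a library left out. The causes of these moves were not tested.

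Under TPM scaling, which moved the median of all genes to -0.018, the turned log2 fold changes were -0.021 for Bag1, Dnaja2, Dnajb4 and Hspa4, -0.029 for Cct3, -0.016 for Cct4, -0.019 for Cct5, -0.0020 for Hspa14, -0.027 for Hspd1 and -0.014 for Tcp1. Under quantile normalization they were -0.0074 for Bag1, -0.023 for Cct3, -0.018 for Cct4, -0.037 for Cct5, -0.0098 for Dnaja2, -0.0026 for Hsp90ab1, -0.0037 for Hspa4, -0.0016 for Hspa8 and -0.014 for Hspd1. Under median-of-ratios scaling they were -0.0062 for Cct3 and -0.0039 for Hspd1. The chaperonin median became -0.019 under TPM scaling and -0.023 under quantile normalization, and the inducible median 0.073 with no filter, which lets in the 3 members of very few reads.

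With 1 library left out in turn, the inducible median lay between -0.0074 and 0.064. The log2 fold changes that turned lay between -0.036 and 0.047 for Hspa4, -0.018 and 0.098 for Hspa8, -0.022 and 0.074 for Hspa14, -0.047 and 0.039 for Hspd1, -0.0053 and 0.091 for Hspe1, -0.031 and 0.076 for Dnaja1, -0.043 and 0.039 for Dnaja2, -0.0074 and 0.026 for Dnajb4, -0.014 and 0.027 for Bag1, -0.026 and 0.083 for Ahsa1, -0.044 and 0.061 for Tcp1, -0.018 and 0.030 for Cct3, -0.012 and 0.031 for Cct5, and -0.063 and 0.0033 for Cct8.

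Both groups have replicates numbered 1 to 3. Correlations of deviations between same-numbered libraries lay between -0.068 and 0.078, so the numbers were not taken to pair the libraries. With the replicate number as a block, 3 genes of the whole table and 0 members passed, and the median of the tested members stayed at 0.013. Depth limits Hspa1a, Hspa1b and Hspb1, which had at most 17 reads in a library.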
